A study of Mus musculus with 6 samples.

Results

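Oxidative phosphorylation is carried out by 5 protein complexes of the mitochondrial inner membrane. The genes for their subunits are described here in colon epithelial cells of mice given atorvastatin or a control gavage. Members were chosen by gene symbol alone (Nduf subunits of complex I, Sdh of complex II, Uqcr of complex III, Cox of complex IV, Atp5 of complex V, and the mitochondrially encoded mt-Nd, mt-Cytb, mt-Co and mt-Atp genes, without symbols that contain -ps). They number 101 of 52550 genes in the deposited values, 88 encoded in the nucleus and 13 in mitochondrial DNA. Among the nuclear members, Ndufa11b, Ndufb4c, Ndufs6b and Cox6c2 are annotated as processed pseudogenes and match by symbol only. All 6 libraries came from colon epithelial cells of male Apc Min/+ mice aged 5 to 6 weeks. This strain carries a truncating allele of the tumour suppressor Apc in the germ line and develops intestinal tumours, and both groups carried it. The 3 control libraries came from mice that received 2% Tween 80 by gavage on alternate days, and the 3 atorvastatin libraries from mice that received 20 mg/kg atorvastatin by the same schedule. The labels give no Tween 80 content for the atorvastatin gavage. If only the controls received it, drug and Tween 80 cannot be told apart. Atorvastatin inhibits HMG-CoA reductase, which supplies the precursors of cholesterol and of coenzyme Q. The labels number the libraries as replicates without naming separate animals, so p-values measure only the spread between these libraries.

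Complexes I and II pass electrons from NADH and succinate to coenzyme Q, complex III passes them on to cytochrome c, and complex IV reduces oxygen. Complexes I, III and IV pump protons, and complex V uses the proton gradient to make ATP. Complexes I, III, IV and V combine subunits from both genomes, whereas every subunit of complex II is nuclear. Colonocytes are known for oxidising butyrate made by gut bacteria, a use of fuel that depends on this chain.

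Values were FPKM (fragments per kilobase of gene, scaled to the mapped total), a level per gene length. Members took 30.7% to 33.2% of the FPKM total of each library, and the totals ran from 407857 to 430832. Read depth is unknown, because FPKM holds no read totals. Summed FPKM of 10 intestinal epithelial markers, all of them above the level for testing, was 6049 to 6227 in controls and 5721 to 5961 with atorvastatin. Summed smooth muscle markers were at or below 1.90 in every library, with Myh11, Des and Cnn1 below 0.1, and fibroblast and endothelial sums were at or below 0.755. T and NK cell markers summed to 11.5 to 19.1 against 8.26 to 10.4, B and plasma cell markers to 5.01 to 11.1 against 2.45 to 3.02, and macrophage markers to 3.75 to 7.64 against 2.48 to 3.06. Enteroendocrine markers (80.0 to 87.9 against 108 to 129) and proliferation markers (93.8 to 114 against 130.3 to 147) were the lists whose sums lay wholly above the controls. Mature colonocyte, goblet, crypt base and erythroid sums overlapped between groups. The part of these marker differences in the values below was not tested. In bulk RNA, fewer cells of a type and less RNA per cell cannot be told apart.

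No oxidative phosphorylation gene passed the test for a difference between atorvastatin and control. Of the 91 members that reached 1 FPKM in at least 3 of 6 libraries, 0 passed an adjusted p of 0.05 (limma on log2(FPKM + 1), Benjamini-Hochberg adjusted over all genes tested), against 0.404% of the 11644 genes tested. At an unadjusted p under 0.05, 1 member passed (1.10%), higher with atorvastatin, against 12.0% of all genes tested (7.75% higher and 4.27% lower) and 11.3% of those with a mean of at least 5 FPKM, a level reached by 89 members. That count was 0 without atorvastatin replicate 1, 2 without control replicate 1 or without control replicate 2, and 3 without control replicate 3 or without atorvastatin replicate 2. The groups did not overlap for 5 members (5.49%), each of them higher with atorvastatin, against 18.1% of all genes tested (12.0% higher and 6.05% lower). The remaining 10 members were too low to be tested, and most are tissue-restricted isoforms described with their complexes.

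The differences were small as well as uncalled. The log2 fold changes of the 91 members ran from -0.17 to 0.20 with a median of 0.03, beside a median of 0.02 over all genes tested. Of these members 63 were above zero and 28 below, or 69.2% above, beside 57.3% of all genes. The 95% interval of the fold change lay within 1.25-fold in either direction for 82 of the 91, or 90.1%. The same held for 68.7% of all genes tested and for 75.7% of those with a mean of at least 5 FPKM. The median standard error was 0.07 on the log2 scale for the members and 0.07 for genes at that level.

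**Figure D1:**
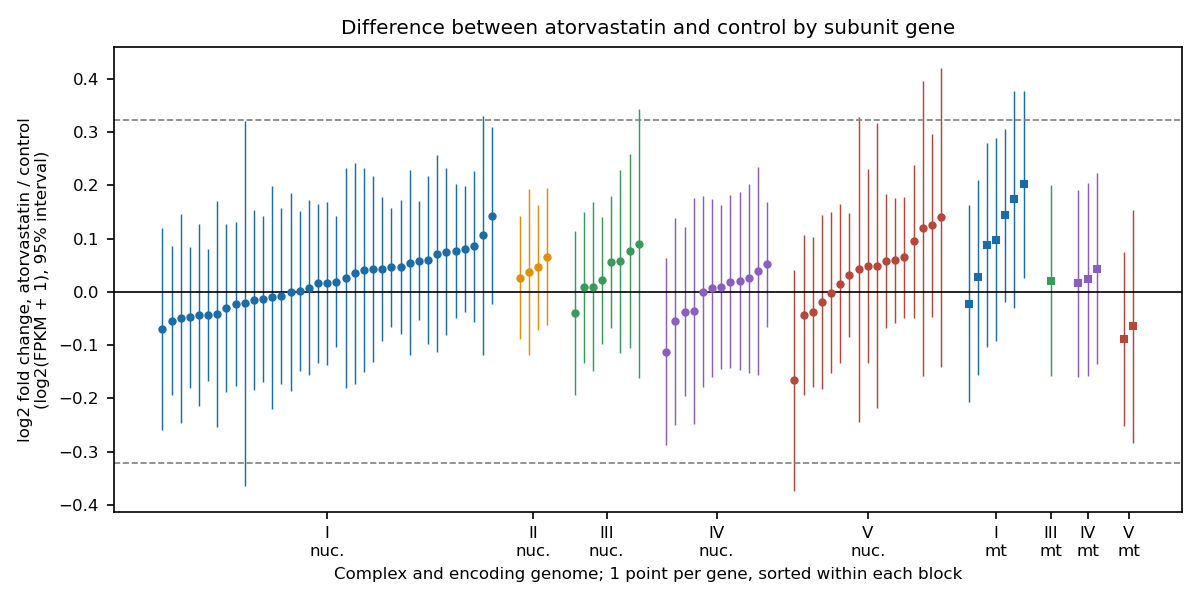
Fold change (log2, atorvastatin over control, limma on log2(FPKM + 1)) of each of the 91 tested members, arranged by complex and by genome, each point a gene with its 95% interval and the dashed lines at 1.25-fold. Points lie between -0.17 and 0.20, and 82 of the 91 intervals lie within 1.25-fold of no difference.

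The nuclear and the mitochondrial genome gave nearly the same median difference. The median log2 fold change was 0.02 over 78 nuclear members (53 above zero, 25 below) and 0.03 over the 13 mitochondrial members (10 above zero, 3 below). Leaving out atorvastatin replicate 1 turned the nuclear median to -0.01, and leaving out control replicate 1 turned the mitochondrial median to -0.002. Neither of these 2 directions thus held in every subset. The mitochondrial members differed by complex, with medians of 0.098 for complex I (6 of 7 above zero) and -0.077 for complex V (0 of 2). The nuclear medians of these complexes were 0.016 and 0.048. The mitochondrial median of complex I ran from 0.054 to 0.168 when single libraries were left out. Mitochondrially encoded transcripts made up 95.3%, 95.8% and 96.0% of summed member FPKM in the controls and 95.6%, 95.4% and 96.1% with atorvastatin. These shares overlapped, with means of 95.7% ± 0.388 (SD, n = 3) and 95.7% ± 0.349 (SD, n = 3). Thus 13 genes supplied nearly all the subunit message, and their median level of 4991 FPKM in controls stood far above the 49.4 FPKM of the nuclear members.

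**Figure D2:**
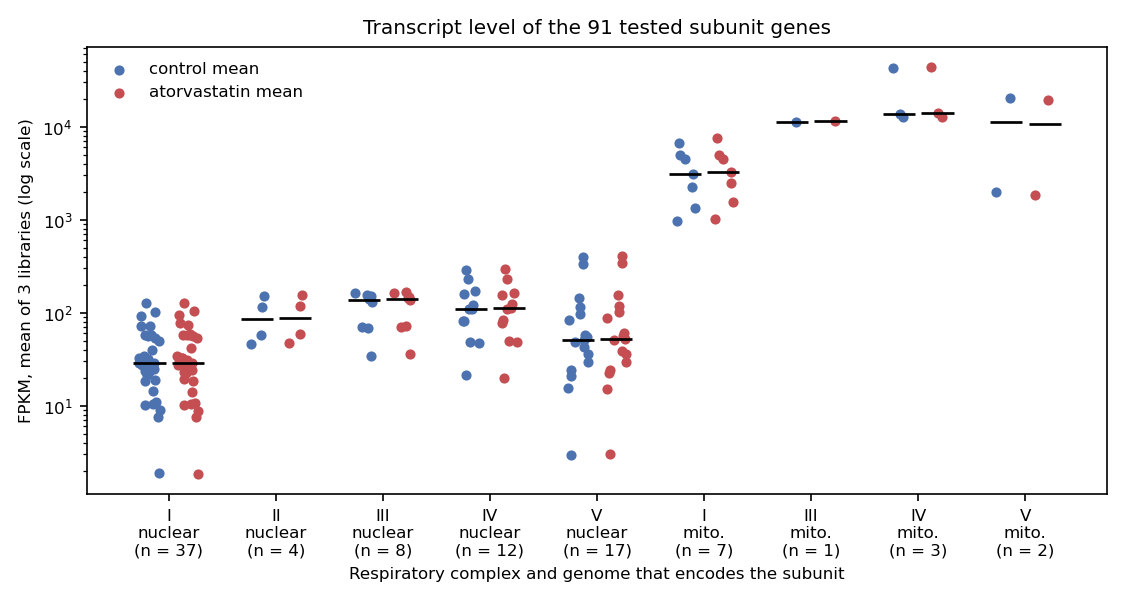
Mean FPKM of 3 libraries (log axis) of each tested member in controls and with atorvastatin, by complex and by genome, each point a gene and each bar the median of its set. The mitochondrially encoded members lie between 959 and 43657 FPKM, above every nuclear member, the highest of which is Atp5a1 at 393 and 409 FPKM.

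Among nuclear subunits, complex I had the lowest levels. Its 37 tested members had a median of 28.7 FPKM in controls and 29.0 with atorvastatin, below complex V (51.2 and 52.5, 17 members), complex II (86.1 and 87.9, 4 members), complex IV (110.04 and 110.9, 12 members) and complex III (136 and 139, 8 members). The order was the same in both groups. Levels spread widely inside a complex whose subunits are present in fixed proportions. In complex I they ran from 1.87 FPKM for the accessory subunit Ndufb2 to 128 for the accessory subunit Ndufb9. Across the 78 nuclear members, Spearman's rho between total exon length and mean FPKM was -0.25. This is a description across genes, which are not independent, and the length enters FPKM itself. Median log2 fold changes by complex were 0.02 (complex I), 0.04 (complex II), 0.04 (complex III), 0.01 (complex IV) and 0.05 (complex V). When single libraries were left out they ran from -0.009 to 0.062, 0.023 to 0.08, 0.007 to 0.067, -0.041 to 0.049 and 0.011 to 0.07, in the same order. The signs for complexes I and IV thus turned, complex I without control replicate 2 or atorvastatin replicate 1, and complex IV without control replicate 3 or atorvastatin replicate 1. They also turned under median-ratio scaling (-0.006 and -0.015), and that of complex IV under quantile normalization (-0.015).

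Complex I takes electrons from NADH through a peripheral arm that holds its flavin and iron-sulfur clusters. Ndufs1, the largest subunit of that arm, was at 23.4, 22.1 and 23.4 FPKM in controls and 24.0, 24.0 and 25.1 with atorvastatin. All 3 atorvastatin libraries lay above all 3 controls by a small amount, log2 0.08 ± 0.05 (standard error), with an adjusted p of 0.603 by limma. Values of 5 further core subunits overlapped between groups. Their means were 28.7 and 27.6 FPKM for Ndufs3, 14.4 and 13.9 for Ndufs7, 49.98 and 52.8 for Ndufs8, 31.8 and 32.8 for the NADH-binding Ndufv1, and 40.1 and 41.4 for Ndufv2 (control, then atorvastatin). These 5 did not share a direction: Ndufs8, Ndufv1 and Ndufv2 had fold changes above zero, and Ndufs3 and Ndufs7 below.

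The accessory subunits surround that core. Ndufa3 had the smallest p of the nuclear members, at 27.2, 23.4 and 25.6 FPKM in controls and 29.2, 28.8 and 26.4 with atorvastatin. Control replicate 1 lay above atorvastatin replicate 3, so the groups overlapped, and the log2 fold change was 0.14 ± 0.07 with an adjusted p of 0.49 by limma. Ndufa13, also known as GRIM-19, was at 34.6, 30.1 and 28.6 against 30.5, 30.3 and 27.7 FPKM. Its difference of -0.07 rested on the high control replicate 1 and was 0.01 without that library. Ndufa4 carries a complex I symbol but is now known as a complex IV subunit, and its means were 27.5 and 28.5 FPKM. Its paralog Ndufa4l2, a hypoxia-induced gene, stayed at or below 0.122 FPKM, and the annotated pseudogenes Ndufa11b and Ndufs6b at or below 0.133.

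Ndufb4 and Ndufb4c illustrate a limit of such values for gene families. The annotated transcript of Ndufb4c, a processed pseudogene, matched that of Ndufb4 at 100% identity, and reads from either could have been given to both. Ndufb4c was listed at 27.7, 22.9 and 23.3 FPKM in controls and 24.5, 26.2 and 22.4 with atorvastatin, and Ndufb4 at 11.1, 9.79 and 10.3 against 9.79, 10.1 and 11.0. Both overlapped between groups, and neither level can be assigned to its own gene. Across the members, 27 had at least 1 copy elsewhere in the annotation (at least 95% identity over at least 50% of the transcript). For 9 of the 78 tested nuclear members (Atp5f1, Atp5g1, Atp5g2, Atp5h, Atp5l, Ndufa12, Ndufb4c, Ndufs3 and Ndufs5) a copy was listed at 10% or more of the member's own value in every library, and their levels are uncertain for this reason.

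Complex II, succinate dehydrogenase, is also an enzyme of the tricarboxylic acid cycle. The flavoprotein Sdha was at 119, 113 and 114 FPKM in controls and 116, 117 and 119 with atorvastatin. The iron-sulfur subunit Sdhb was at 61.3, 56.1 and 52.9 against 60.3, 57.9 and 56.5 FPKM. Both overlapped between groups, as did the membrane anchors. The anchor Sdhd was at 154, 144 and 149.5 against 159, 160.4 and 149.9 FPKM, and Sdhc at 47.3, 45.1 and 44.6 against 48.3, 46.8 and 46.4. All 4 fold changes were above zero (log2 0.03 to 0.07), and the largest, that of Sdhd, was 0.07 ± 0.05 with an adjusted p of 0.71 by limma.

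Complex III carries the Rieske protein, which takes electrons from reduced coenzyme Q. Its gene Uqcrfs1 was at 135, 131 and 124 FPKM in controls and 137, 136 and 134 with atorvastatin. Atorvastatin replicate 3 lay below control replicate 1, and the log2 fold change was 0.06 ± 0.05, adjusted p 0.75 by limma. The core proteins Uqcrc1 (means 70.1 and 70.4 FPKM) and Uqcrc2 (141 and 143 FPKM) also overlapped. Uqcrh, the hinge protein that docks cytochrome c1, had the highest mean over 6 libraries of the nuclear genes of the complex (163 and 165 FPKM by group), with Uqcr10 close to it (157 and 165), and Uqcrq the lowest at 34.4 and 35.7. The 8 nuclear members had 7 fold changes above zero, Uqcrb being the exception at -0.04. The other electron-transferring subunit of nuclear origin, cytochrome c1 (Cyc1), does not match the symbol rule and had means of 133 and 136 FPKM, and the mobile carrier cytochrome c (Cycs) 68.5 and 67.0.

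Complex IV has subunits with alternative isoforms for different tissues, and colon epithelium used one side of nearly every pair. Cox4i1, the general isoform, was at 239, 233 and 211 FPKM in controls and 239, 221 and 228 with atorvastatin, whereas Cox4i2, known from lung and hypoxia, was listed at 0 in 5 libraries and at 0.0348 in control replicate 2. The heart and skeletal muscle isoform Cox6a2 stayed at or below 0.19 FPKM beside Cox6a1 at 158 to 193. The testis isoform Cox6b2 lay between 0.294 and 1.08 FPKM, or 0.105% to 0.371% of the summed level with Cox6b1, the highest nuclear gene of the complex at 291 FPKM. Cox7b2 and Cox8c were listed at 0 in all 6 libraries, and Cox8b was listed at 0 in all but atorvastatin replicate 1, at 0.075. Cox6c2, annotated as a processed pseudogene rather than an isoform, reached 0.445 FPKM at most beside Cox6c at 43.4 to 50.9. In both groups the isoform known from muscle, testis or lung was thus close to zero for Cox4, Cox6a, Cox6b and Cox8.

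Cox7a1 was the exception. This isoform is best known from heart and skeletal muscle, yet it was at 22.8, 20.9 and 21.0 FPKM in controls and 20.9, 20.9 and 17.9 with atorvastatin. Its share of the summed Cox7a1 and Cox7a2 level was 16.5%, 16.1% and 16.4% in controls against 14.6%, 16.3% and 14.3%. Atorvastatin replicate 2 lay inside the control range, so the shares overlapped, and the log2 fold change of Cox7a1 was -0.11 ± 0.07 with an adjusted p of 0.628 by limma. It ran from -0.04 without atorvastatin replicate 3 to -0.15 without atorvastatin replicate 1 or 2. Smooth muscle markers were at or below 1.90 FPKM in sum in the same libraries, and the muscle isoforms Cox6a2 and Cox8b at or below 0.19. The related Cox7a2l, which has a part in respiratory supercomplexes rather than being only an isoform, had means of 109.6 FPKM in both groups.

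The promoters of 2 isoform pairs, the Cox7a and Cox8 genes, are shown because 1 muscle isoform of them was present and the other was not. Each is the 250 bases before the RefSeq transcription start (GRCm38.p6), 5′ to 3′ on the gene's strand, with CpG dinucleotides in capitals. Cox7a1 is chr7:30183921-30184170 on the plus strand, Cox7a2 chr9:79759854-79760103, Cox8a chr19:7217617-7217866 and Cox8b chr7:140900447-140900696, the last 3 on the minus strand.
Cox7a1: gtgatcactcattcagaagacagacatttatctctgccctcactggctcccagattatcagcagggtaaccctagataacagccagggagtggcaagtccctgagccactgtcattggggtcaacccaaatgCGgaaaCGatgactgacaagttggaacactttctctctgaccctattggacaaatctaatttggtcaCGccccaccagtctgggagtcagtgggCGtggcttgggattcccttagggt
Cox7a2: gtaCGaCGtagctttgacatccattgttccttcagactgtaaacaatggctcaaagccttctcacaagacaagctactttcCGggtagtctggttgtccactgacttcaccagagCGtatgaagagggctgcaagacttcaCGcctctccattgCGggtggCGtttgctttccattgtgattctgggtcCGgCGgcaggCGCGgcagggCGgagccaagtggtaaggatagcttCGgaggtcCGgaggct
Cox8a: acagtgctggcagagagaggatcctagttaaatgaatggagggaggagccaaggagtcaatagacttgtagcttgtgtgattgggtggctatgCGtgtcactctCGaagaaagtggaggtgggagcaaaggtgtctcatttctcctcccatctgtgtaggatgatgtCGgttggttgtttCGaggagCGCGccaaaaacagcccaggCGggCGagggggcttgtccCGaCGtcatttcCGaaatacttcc
Cox8b: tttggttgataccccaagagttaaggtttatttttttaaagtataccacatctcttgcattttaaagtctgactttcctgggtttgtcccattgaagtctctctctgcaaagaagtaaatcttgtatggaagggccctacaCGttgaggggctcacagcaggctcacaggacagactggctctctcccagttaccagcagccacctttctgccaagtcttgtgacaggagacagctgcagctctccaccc
The windows of the general isoforms Cox7a2 and Cox8a held 14 and 11 CpG, and those of the muscle isoforms Cox7a1 and Cox8b held 4 and 1. The count of Cox7a1, which was at 17.9 to 22.8 FPKM, was the lowest among the 65 tested members with a window, shared with Ndufc2 (4 to 35, median 14), beside a median of 17 over the 8396 tested genes and of 6 over all 27025 genes with a window.

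Complex V consists of a catalytic head and a membrane rotor. The head subunits alpha (Atp5a1) and beta (Atp5b) bind the nucleotides. Atp5a1 was at 404, 385 and 389.6 FPKM in controls and 408, 415 and 405 with atorvastatin. The groups did not overlap, but the lowest atorvastatin value exceeded the highest control by little, and the log2 fold change was 0.06 ± 0.05, adjusted p 0.713 by limma. Atp5h, subunit d of the stalk that holds the head still, was at 114, 111 and 116 against 120.4, 119 and 117 FPKM, also without overlap (log2 0.06 ± 0.05, adjusted p 0.678 by limma). Atp5b (means 334 and 342 FPKM) and the gamma subunit Atp5c1 (144 and 156) overlapped. Levels of Atp5c1 varied more than those of its partners, from 125 in control replicate 1 to 171 in control replicate 2.

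The lowest fold change of all members belonged to Atp5j2, the membrane subunit f. It was at 47.1, 38.1 and 44.1 FPKM in controls and 40.7, 38.2 and 35.7 with atorvastatin. Control replicate 2 lay among the atorvastatin libraries, and the log2 fold change was -0.17 ± 0.09 (95% interval -0.37 to 0.04) with an adjusted p of 0.526 by limma. It ran from -0.10 without control replicate 1 to -0.25 without control replicate 2. Atp5s, a coupling factor rather than a subunit proper, was the lowest gene of the family at 2.98 FPKM. The physiological inhibitor of the enzyme, Atpif1, does not match the symbol rule and had means of 49.6 and 51.2 FPKM.

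The c ring of the rotor is encoded by 3 nuclear genes whose mature proteins are the same, since they differ in the import sequence that is removed. As listed, Atp5g3 held 62.9% of their summed FPKM in controls and 63.6% with atorvastatin. Atp5g1 held 13.5% and 13.99%. Atp5g2 held 23.7%, 23.6% and 23.2% in controls and 22.8%, 22.3% and 22.3% with atorvastatin, shares that did not overlap and were singled out after their values were seen. In absolute terms Atp5g2 was at 38.1, 34.8 and 34.3 against 37.8, 36.3 and 34.2 FPKM, while Atp5g3 was at 101, 93.7 and 92.0 against 106, 103 and 97.3 (log2 0.10 ± 0.06, adjusted p 0.616 by limma). Atp5g1 was at 21.4, 18.6 and 21.8 against 22.1, 23.7 and 21.7 FPKM (log2 0.12 ± 0.07, adjusted p 0.571 by limma, and 0.06 without control replicate 2). Atp5g2 has 2 identical copies, Gm10231 and Gm10175, listed at 0.569 to 0.671 and 0.487 to 0.571 times its own level, and Atp5g1 has Gm10039 at 1.44 to 1.62 times. With the copies added to each gene, a choice made after the data were seen, Atp5g3 held 42.7% and 43.1%, Atp5g2 34.0% and 33.6%, and Atp5g1 23.3% and 23.4%. The shares of all 3 genes then overlapped between groups, so neither the size of these shares nor the difference of Atp5g2 is settled by these values.

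The 13 mitochondrially encoded members lie on a circular genome transcribed as long precursors. mt-Co1, the catalytic core of complex IV, was the highest gene of all members, at 41164, 44325 and 43151 FPKM in controls and 42918, 40509 and 47542 with atorvastatin. Next by mean over 6 libraries came mt-Atp8 (19902), mt-Co2, mt-Co3 (12763), mt-Cytb (11352), mt-Nd1 (7064), mt-Nd4, mt-Nd4l, mt-Nd2, mt-Nd5, mt-Atp6 (1915), mt-Nd6 and mt-Nd3 (994). Among neighbours in that order, mt-Co2 and mt-Co3 overlapped between control libraries (13718 ± 1057 and 12684 ± 517, SD, n = 3), as did mt-Nd4 and mt-Nd4l. As listed, before any copies are added, mt-Co2 lay above mt-Co3, and mt-Nd4 above mt-Nd4l, within each of the 6 libraries. mt-Co1 lay above mt-Nd1 by far more than the spread of either gene. mt-Co2 was at 13718 and 14122 FPKM, mt-Co3 at 12684 and 12842, and mt-Cytb, the only complex III subunit of this genome, at 11262 and 11443 (group means, control then atorvastatin). The log2 fold changes of mt-Co1, mt-Co2, mt-Co3 and mt-Cytb lay between 0.02 and 0.04.

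The 3 largest fold changes of this genome, those of mt-Nd6, mt-Nd1 and mt-Nd5, belonged to complex I. mt-Nd6 was at 1258, 1355 and 1449 FPKM in controls and 1638, 1461 and 1569.6 with atorvastatin. No libraries overlapped, and the log2 fold change was 0.20 ± 0.07 (95% interval 0.03 to 0.38), with an unadjusted p of 0.030 and an adjusted p of 0.35 by limma. It is the member with an unadjusted p under 0.05, but that p was 0.05 or more in 6 of 16 alternative settings (0.015 to 0.101 over all of them), and the adjusted p ran from 0.243 to 0.619. The unadjusted p was 0.0999 without control replicate 1, 0.0669 without control replicate 2, 0.101 without atorvastatin replicate 1 and 0.0744 without atorvastatin replicate 3. mt-Nd1 was at 6180, 6541 and 7190 against 7665, 6809 and 7998 FPKM, where atorvastatin replicate 2 fell among the controls (log2 0.17 ± 0.09, adjusted p 0.494 by limma). The log2 fold change of mt-Nd1 was 0.00 after quantile normalization, which forces the highest genes of each library to shared values. mt-Nd5 had a log2 fold change of 0.14 ± 0.07 (adjusted p 0.476), mt-Nd3 0.10, mt-Nd2 0.09, mt-Nd4l 0.03 and mt-Nd4 -0.02. The ratio of summed mt-Nd to summed mt-Co levels, which does not depend on scaling between libraries, was 0.337, 0.336 and 0.355 in controls and 0.379, 0.352 and 0.346 with atorvastatin, and overlapped.

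**Figure D3:**
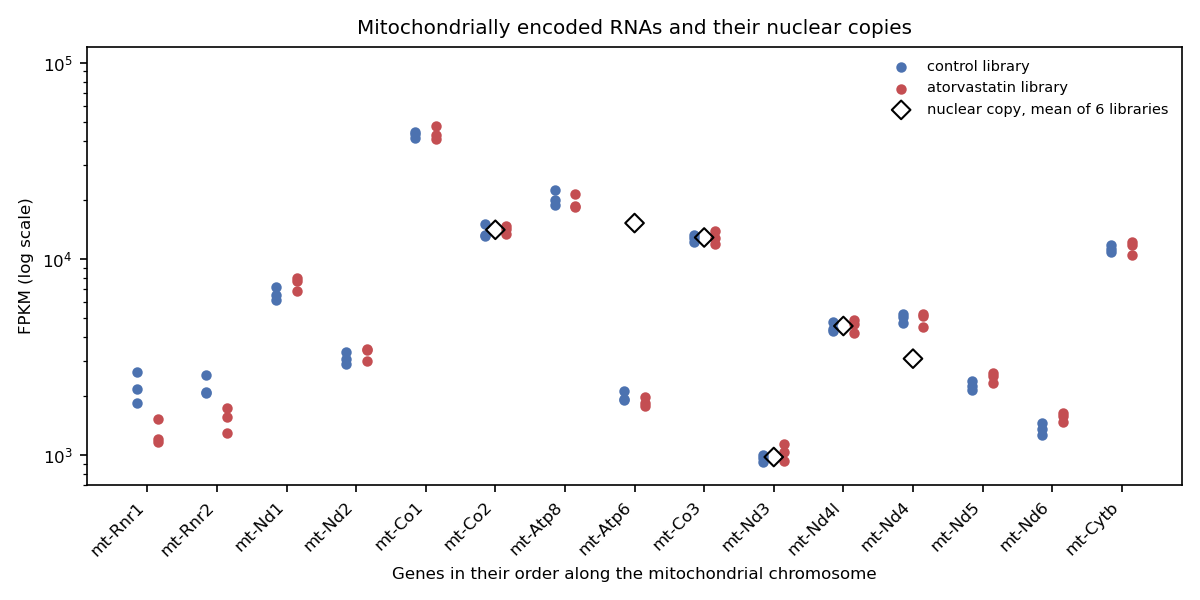
FPKM (log axis) of the 13 mitochondrially encoded members and the ribosomal RNAs mt-Rnr1 and mt-Rnr2 in each library, in genome order, with the mean of a nuclear copy over 6 libraries as an open diamond where it is high enough to be drawn. The groups overlap for every member but mt-Nd6, where the controls reach 1449 and the atorvastatin libraries start at 1461.

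mt-Nd6 is the only member of this genome encoded on the light strand, and its annotated end overlaps that of mt-Nd5 by 14 bases on the opposite strand (chrM:13552-13565, GRCm38). The strand setting of the quantification is not given in the sources used here, so reads of mt-Nd6 and reads antisense to it cannot be told apart. Within a library, the ratio of mt-Nd6 to mt-Cytb, its neighbour on the other strand, was 0.116, 0.121 and 0.123 in controls and 0.134, 0.140 and 0.135 with atorvastatin. The ratio to mt-Nd5 was 0.590, 0.606 and 0.613 against 0.631, 0.629 and 0.623. Neither ratio overlapped between groups, but both were singled out after their values were seen and neither was tested. mt-Nd6 was itself the mitochondrial member without overlap, so the ratios are no separate support for a difference. Such a ratio also does not say which gene differs.

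The mitochondrial ribosomal RNAs, which are no members, were listed lower relative to mt-Nd1 with atorvastatin. The ratio of mt-Nd1 to mt-Rnr1 was 2.87, 2.49 and 3.93 in controls and 6.42, 5.87 and 5.24 with atorvastatin. The ratio of mt-Nd1 to mt-Rnr2 was 3.01, 2.58 and 3.46 against 4.91, 5.26 and 4.65. Neither overlapped, and the ratios of group means were 1.89 and 1.64. These ratios were chosen after the levels were known. They rest on mt-Nd1, whose log2 fold change of 0.17 was above the median of 0.03 over the 13 mitochondrial members, so ratios to most other members would be smaller. mt-Rnr1 itself had a log2 fold change of -0.76 and mt-Rnr2 of -0.55, with adjusted p of 0.115 and 0.153 by limma, so neither passed. Ribosomal RNA and messages are transcribed from the same genome, and the method by which ribosomal RNA was removed before sequencing is not given in the sources used here.

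mt-Atp8 and mt-Atp6, the membrane subunits of complex V, had the negative fold changes of the mitochondrial set together with mt-Nd4. mt-Atp8 was at 18755, 19963 and 22318 FPKM in controls and 18568, 18358 and 21450 with atorvastatin, and mt-Atp6 at 1888, 1930 and 2103 against 1833, 1766 and 1968. Both overlapped between groups (log2 -0.06 ± 0.09 and -0.09 ± 0.07, adjusted p 0.851 and 0.695 by limma). The genes are made as a single message, yet mt-Atp8 was listed at 9.93 to 10.9 times mt-Atp6. Their reading frames share 43 bases (chrM:7927-7969, plus strand, GRCm38), printed here with the start codon of mt-Atp6 in capitals because the first 43 bases of a nuclear copy are the same.
mt-Atp8 and mt-Atp6 overlap: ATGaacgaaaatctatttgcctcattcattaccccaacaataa
That copy, Gm10925 on chromosome 1, matches 678 of the 681 bases of mt-Atp6 at 100% identity. It was listed at 7.77 to 8.17 times mt-Atp6 in the 6 libraries. Adding it to mt-Atp6 brought the ratio of mt-Atp8 to the sum down to 1.13 to 1.19. The level listed for mt-Atp6 is therefore uncertain. Another 5 members had a copy at a high level: the ratio of copy to gene was 1.01 for mt-Co2, 1.00 for mt-Co3, 1.00 to 1.01 for mt-Nd4l, 0.968 to 0.985 for mt-Nd3 and 0.613 to 0.643 for mt-Nd4. Their levels are uncertain too. The copy of mt-Co1, Gm13340, was listed at 0.0002 times mt-Co1. With copies added, a choice made after the data were seen, mt-Co1 stayed highest. mt-Co2 (27951 FPKM) and mt-Co3 (25571) then passed mt-Atp8, and mt-Atp6 (17087) passed mt-Cytb. mt-Nd4l (9038.5) and mt-Nd4 (8041) passed mt-Nd1 and changed places with each other, and mt-Nd3 (1965.5) passed mt-Nd6. The copy of mt-Nd4, Gm28439, matches only 63.6% of its transcript. That sum thus adds FPKM over unlike lengths, and the place of mt-Nd4 above mt-Nd1 is uncertain. The order by level thus depends on how shared reads were counted. The mitochondrial share of member FPKM was 96.9% in both groups when these copies were added.

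Nuclear subunit genes varied together between libraries of the same group. Of the 78 tested nuclear members, 61 (78.2%) had their highest control value in control replicate 1, beside 37.7% of all genes tested. In the atorvastatin group 52 (66.7%) were highest in replicate 1, beside 32.8% of all genes, and 51 (65.4%) were lowest in replicate 3, beside 44.1%. Median deviations of nuclear members from their own group mean were 0.085, -0.039 and -0.041 on the log2 scale for controls 1 to 3 and 0.051, 0.002 and -0.05 for atorvastatin 1 to 3, beside a median difference of 0.023 between the groups. Over all genes tested they were 0.015, -0.011 and -0.005, then -0.001, 0.023 and -0.021. Mitochondrially encoded members had another order: their medians were -0.065, -0.004 and 0.082 in controls and 0.052, -0.106 and 0.063 with atorvastatin. Control replicate 1, the highest control for nuclear subunits, was thus the lowest for mitochondrial ones.

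**Figure D4:**
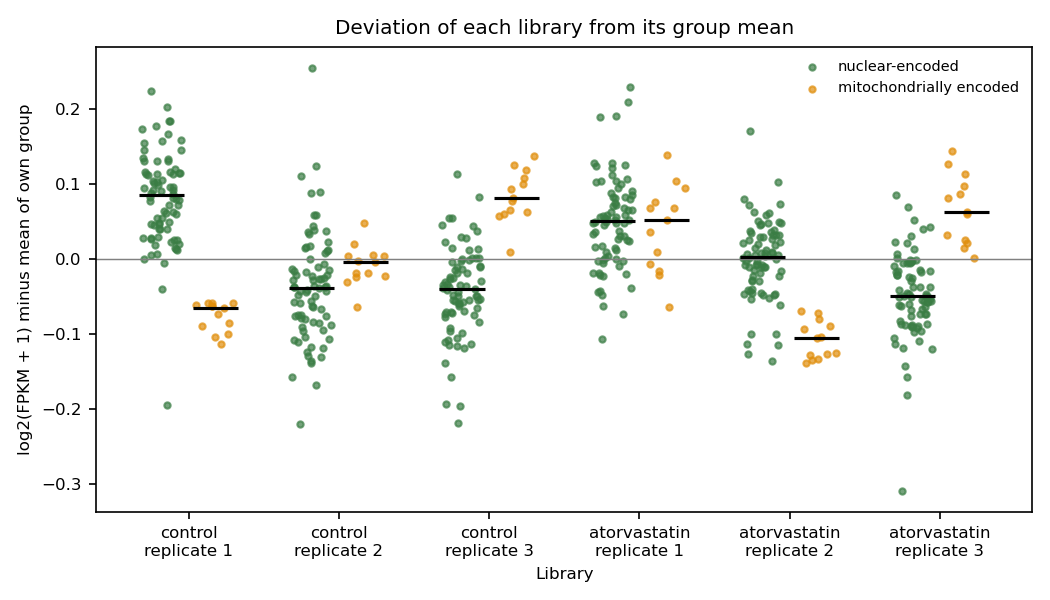
Deviation of members from their group mean (log2, vertical axis) in each of the 6 libraries, with nuclear and mitochondrially encoded members apart and the median marked. Nuclear medians run from 0.085 in control replicate 1 to -0.05 in atorvastatin replicate 3, while the median difference between groups is 0.023.

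By median, shorter nuclear members deviated farther from their group mean than longer ones in every library but atorvastatin replicate 2. The nuclear members are short genes, with a median total exon length of 1631 bases against 4011 over all genes tested. In control replicate 1 the 39 members no longer than the median had a median deviation of 0.102 and the 39 longer ones of 0.061. All 1900 tested genes no longer than 1631 bases had a median deviation of 0.028 in that library. The part of length or of RNA quality in the shared pattern was not tested.

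No gene from the lists that build and serve the chain passed the test. Of 178 tested genes in 15 lists, 0 passed an adjusted p of 0.05 by limma, and 9 had an unadjusted p under 0.05 (3 higher, 6 lower), or 5.06%, beside 12.0% of all genes tested. Assembly factors had median log2 fold changes of 0.03 for complex I (11 of 16 above zero), -0.04 for complex II (1 of 3), 0.00 for complex III with cytochrome c1 (4 of 7), -0.01 for complex IV (9 of 19) and 0.05 for complex V (3 of 5). Uqcc1, which assembles complex III, was at 7.56, 7.44 and 7.21 FPKM in controls and 4.86, 6.96 and 5.79 with atorvastatin. The groups did not overlap (log2 -0.30 ± 0.11, adjusted p 0.331 by limma).

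Coenzyme Q links complexes I and II to complex III, and its tail is made from the mevalonate pathway that atorvastatin inhibits. Of 13 tested genes of its synthesis and handling 8 were above zero (median 0.05), beside 57.3% of all genes tested. By limma 0 passed an adjusted p of 0.05, beside 0.404% of all genes tested, and 1 had an unadjusted p under 0.05, beside 12.0%. Coq10b, which binds coenzyme Q, was at 14.5, 14.03 and 13.9 FPKM in controls and 12.3, 11.7 and 12.4 with atorvastatin. The groups did not overlap, but the log2 fold change of -0.21 ± 0.05 had an adjusted p of 0.164 by limma. The next smallest p belonged to Coq7, a hydroxylase of the ring, at 2.62, 2.52 and 2.69 against 2.93, 3.19 and 2.85 FPKM (log2 0.14 ± 0.06, adjusted p 0.417 by limma). Coq4 was at 1.81, 1.53 and 1.52 against 1.83, 1.93 and 1.97 FPKM (log2 0.15 ± 0.07, adjusted p 0.466 by limma). Without overlap between groups, 2 of the 13 genes (Coq7 and Coq4) thus lay higher with atorvastatin and 1 (Coq10b) lower. Over all genes tested the shares were 12.0% higher and 6.05% lower.

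The carriers that exchange ATP for ADP differed in level and in size of difference. Slc25a5 (ANT2) was the main one, at 591, 539 and 529 FPKM in controls and 567, 563 and 523 with atorvastatin. Slc25a4 (ANT1), the isoform of heart and muscle, was at 2.51, 2.23 and 2.65 against 3.72, 3.74 and 4.20 FPKM. Every atorvastatin library was above every control, with a log2 fold change of 0.50 ± 0.07, and the adjusted p of 0.0508 by limma fell just outside the threshold. Over the 12 carriers the median was 0.01, with 7 above zero.

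No regulator of mitochondrial content passed the test, beside 0.404% of all genes tested. The coactivator Ppargc1a had means of 11.1 and 11.2 FPKM, the nuclear receptor Esrra 28.9 and 30.0, and the transcription factor Nrf1 1.198 and 1.242. Tfam, which packages mitochondrial DNA and starts its transcription, was at 6.87, 8.21 and 7.97 FPKM in controls and 8.42, 8.78 and 8.33 with atorvastatin, without overlap (log2 0.13 ± 0.07, adjusted p 0.526 by limma). The mitochondrial RNA polymerase Polrmt had means of 3.21 and 3.58 FPKM, and Lrpprc, which stabilises mitochondrial messages, 8.63 and 9.01. Median log2 fold changes were 0.03 over 17 biogenesis regulators (10 above zero) and 0.04 over 27 genes of mitochondrial DNA upkeep and expression (19 above zero).

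Neighbouring pathways had median differences of similar size. The tricarboxylic acid cycle had a median of 0.03 (15 of 18 above zero), glycolysis 0.03 (9 of 17), cristae genes 0.03 (8 of 13) and the mitochondrial unfolded protein response 0.08 (6 of 8). Pgk1, a glycolytic enzyme that makes ATP, had means of 111 and 125 FPKM (log2 0.18, adjusted p 0.331 by limma). Among other glycolytic genes, Pfkm had means of 4.30 and 5.02 FPKM (log2 0.18, adjusted p 0.329 by limma). Pfkp went the other way, with means of 13.2 and 12.05 FPKM (log2 -0.12, adjusted p 0.384 by limma). The inner membrane protease Oma1 had means of 20.1 and 17.5 FPKM (log2 -0.20, adjusted p 0.356 by limma). These list medians compare with 0.02 over all genes tested.

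Many promoters of nuclear oxidative phosphorylation genes are known to hold sites for NRF1, ETS-family factors and YY1. RefSeq windows (250 bases before to 50 after the start, GRCm38.p6) were matched for 68 of 88 nuclear members, 65 of them tested. The palindromic NRF1 core CGCATGCG was found in 9 of 65 windows (13.8%), beside 4.62% of the 8396 tested genes with a window and 2.07% of all 27025 genes with one. With 1 base free (CGCANGCG, which includes the first motif) it was in 25 windows (38.5%), beside 20.3% and 9.22%. The ETS core CCGGAAG was in 16 (24.6%), beside 22.0% and 9.93%, and the YY1 core AAGATGGC in 10 (15.4%), beside 5.90% and 3.19%. Both strands were searched. Share for share, the ETS core was about as frequent among all tested genes as among members. A match is a description of letters and not of binding.

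The NRF1 core nearest the start is printed for each of complexes I, III, IV and V, and its distance from the start is given below. Each line shows 30 bases 5′ to 3′ on the gene's strand (RefSeq, GRCm38.p6, all on the minus strand), with the core in capitals.
Ndufa8: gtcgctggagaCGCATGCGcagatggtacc
Uqcr11: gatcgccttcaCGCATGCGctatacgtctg
Cox6a1: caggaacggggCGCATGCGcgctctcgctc
Atp5g2: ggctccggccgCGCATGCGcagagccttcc
They lie at chr2:36049329-36049358, chr10:80406808-80406837, chr5:115349101-115349130 and chr15:102671070-102671099, in the order printed. Counted from the start, the core begins at -9 in Ndufa8, -5 in Uqcr11, -161 in Cox6a1 and -41 in Atp5g2. The log2 fold changes of these genes were 0.02, 0.09, -0.06 and 0.02, and none passed the test.

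A few subunits fall outside the symbol rule and are given for completeness. Ndufab1, the acyl carrier subunit of complex I, had means of 7.41 and 7.41 FPKM. Ndufb1-ps, whose symbol was left out with 7 others of its kind, had 13.1 and 13.7. Usmg5, a small membrane subunit of complex V, had 178 and 180 FPKM. All 3 overlapped between groups.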

How the data were processed

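RNA sequencing values of 6 colon epithelial libraries (3 control, 3 atorvastatin) were used as deposited by the authors, as FPKM per Ensembl gene. The unit was read from the values. The tools listed per the submitters' processing notes are FastQC 0.11.2 and Bowtie, on build mm10. How fragments were assigned to genes (the tool, annotation, strand and handling of multiply mapped reads) is not given in the sources used here. Read depth is unknown, so no counting interval could be given.

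Symbols were joined by Ensembl identifier (52403 of 52550 named). Genes reaching 1 FPKM in 3 or more of the 6 libraries were tested on log2(FPKM + 1) with limma 3.58.1 (R 4.3.3, trended and robust, two-sided, Benjamini-Hochberg). Fold changes understate differences of low genes. Copies were found with BLAST 2.17.0 among GENCODE transcripts (GRCm38). Alternatives were a pseudocount of 0.1, no filter, a filter of 5 FPKM, 5 scalings, a plain limma fit, a replicate block, and each library left out. The fit was checked on simulated data with differences larger than those of the members. That check does not bear on differences of the members' size.

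Genes named are all mitochondrial members, isoform groups, core subunits, and in each complex the smallest p and the highest and lowest levels, with up to 3 genes of each companion list. Members and lists were chosen with earlier results of these data known. A core subunit the rule would name is not reported here.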

Additional observations from a re-analysis of the deposited data

How the results depend on the processing

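The count of members past an adjusted p of 0.05 was 0 in the fit reported and in all 16 alternatives that refitted the genes, and the smallest adjusted p of any member ran from 0.243 to 0.561. Median log2 fold changes of nuclear members ran from -0.01 to 0.06, and those of mitochondrially encoded members from -0.002 to 0.08, when single libraries were left out. With median-ratio scaling the medians were 0.00 and 0.00. The difference in mitochondrial share of member FPKM was -0.02 percentage points, -0.23 to 0.15 when single libraries were left out, and -0.06 without genes that have a copy. Over all genes the number past the threshold was 47, and it was 2 without a filter on low values, 7 without control replicate 1, 72 without control replicate 3, 13 without atorvastatin replicate 1, 18 without atorvastatin replicate 3 and 30 without control replicate 2; the cause was not tested. mt-Nd1 turned to 0.00 (adjusted p 1) under quantile normalization and Ndufa13 to 0.008 (adjusted p 0.984) without control replicate 1, within a range of -0.125 to 0.008 when single libraries were left out; the cause was not tested.

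The labels number replicates 1 to 3 in both groups. Over all genes tested, same-numbered libraries did not deviate together (correlations -0.14, -0.11 and 0.01). Control replicate 1 correlated best with atorvastatin replicate 2 (0.16). The nuclear members differed from this for replicate 1. Their median deviation was highest in replicate 1 of both groups (0.085 in controls, 0.051 with atorvastatin). With atorvastatin it was lowest in replicate 3 (-0.05), whereas control replicates 2 and 3 were close (-0.039 and -0.041). Of the 78 nuclear members, 40 were lowest in control replicate 2 and 36 in control replicate 3. A replicate block left 0 members called, 0 members at an unadjusted p under 0.05, and medians of 0.02 and 0.03, with 1 gene called over all genes tested.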
